A study of Mus musculus with 20 samples.

Results

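The 207 regions described here had a Suz12 peak in at least 1 of 4 peak lists of untreated mouse embryonic stem cells and in none of 4 lists of cells whose transcription had been inhibited. They were taken from 11943 regions, obtained by joining all peaks of the 8 lists that shared at least 1 bp. Of the other regions, 5115 had a peak in treated lists only, 4281 had a peak in all 8 lists, and 2340 had peaks in some lists of both kinds. Peak calls on these same libraries chose the 207 regions, so the difference in Suz12 between treated and untreated cells at them is a description and carries no test.

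All libraries came from wild-type E14 embryonic stem cells grown in serum with leukemia inhibitory factor on gelatin. E14 was the only line, so the regions describe 1 line. The DRB series consisted of cells given 100 µM DRB for 12 h and of untreated cells (0 h). The triptolide series consisted of cells given 10 µM triptolide for 9 h and of its own untreated cells (0 h). Suz12 was immunoprecipitated from cross-linked chromatin and sequenced, with 2 libraries in each of the 4 groups. DRB inhibits the kinase that releases paused RNA polymerase II, and triptolide blocks the initiation factor TFIIH. The series asks how Polycomb binding changes when transcription stops.

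Suz12 belongs to PRC2, the Polycomb complex that methylates lysine 27 of histone H3. In embryonic stem cells PRC2 is concentrated at CpG islands of silent developmental genes, where it forms domains that extend over the promoter and often beyond it. CpG islands are stretches in which the CG dinucleotide, rare in most of the mouse genome, is frequent and unmethylated.

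Few of these regions lay over promoters, and most of those promoters were poor in CG dinucleotides. RefSeq promoter windows of 300 bases (250 before to 50 after the start, GRCm38.p6) were available for 17274 protein-coding genes. The gene annotation held 21631 on the autosomes and X, so not every gene had a window. A window overlapped 2489 of the 5115 treated-only regions and 1006 of the 2340 regions in some lists of both kinds. It overlapped 2216 of the 4281 regions of all 8 lists. Of the 207 regions, 25 overlapped a window, and these windows belonged to 25 genes. A set of 4 is shown with every CG in capitals, chosen for their number of lists (Zfp365, Tctex1d1), their untreated level (Slc17a6) or their log2 change (Btg2), and the promoter of Msx1, whose Suz12 domain was called in all 8 lists, stands beside them. Zfp365 encodes a zinc finger protein, and its window is chr10:67912613-67912912 on the minus strand. Tctex1d1 encodes a dynein light chain of the Tctex type (chr4:102978453-102978752, plus strand). Slc17a6 encodes a vesicular glutamate transporter of neurons (chr7:51621580-51621879, plus strand). Btg2 encodes an antiproliferative protein (chr1:134079106-134079405, minus strand). Msx1 encodes a homeodomain protein of limb and face (chr5:37824536-37824835, minus strand).
Zfp365: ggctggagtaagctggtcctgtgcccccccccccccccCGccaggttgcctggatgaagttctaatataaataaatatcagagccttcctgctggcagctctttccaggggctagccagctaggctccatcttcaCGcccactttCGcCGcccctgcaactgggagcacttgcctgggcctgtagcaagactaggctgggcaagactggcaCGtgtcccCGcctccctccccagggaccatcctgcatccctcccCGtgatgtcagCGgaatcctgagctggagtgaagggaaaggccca
Tctex1d1: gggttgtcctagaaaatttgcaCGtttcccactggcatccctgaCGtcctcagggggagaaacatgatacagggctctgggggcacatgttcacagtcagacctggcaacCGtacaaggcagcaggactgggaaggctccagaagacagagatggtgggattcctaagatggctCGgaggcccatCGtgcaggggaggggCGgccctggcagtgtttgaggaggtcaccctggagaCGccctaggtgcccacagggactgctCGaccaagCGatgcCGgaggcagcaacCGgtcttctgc
Slc17a6: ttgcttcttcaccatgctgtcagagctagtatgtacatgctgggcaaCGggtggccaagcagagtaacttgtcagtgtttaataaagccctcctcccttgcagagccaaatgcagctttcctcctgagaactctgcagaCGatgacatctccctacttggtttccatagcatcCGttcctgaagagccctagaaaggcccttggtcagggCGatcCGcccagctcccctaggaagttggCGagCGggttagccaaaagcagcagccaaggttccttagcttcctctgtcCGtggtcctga
Btg2: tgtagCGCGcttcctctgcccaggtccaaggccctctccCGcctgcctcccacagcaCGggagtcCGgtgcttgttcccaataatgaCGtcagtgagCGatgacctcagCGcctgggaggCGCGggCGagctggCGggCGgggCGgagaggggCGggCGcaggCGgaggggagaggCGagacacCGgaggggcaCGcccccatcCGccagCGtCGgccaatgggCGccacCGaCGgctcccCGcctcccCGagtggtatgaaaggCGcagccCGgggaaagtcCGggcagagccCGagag
Msx1: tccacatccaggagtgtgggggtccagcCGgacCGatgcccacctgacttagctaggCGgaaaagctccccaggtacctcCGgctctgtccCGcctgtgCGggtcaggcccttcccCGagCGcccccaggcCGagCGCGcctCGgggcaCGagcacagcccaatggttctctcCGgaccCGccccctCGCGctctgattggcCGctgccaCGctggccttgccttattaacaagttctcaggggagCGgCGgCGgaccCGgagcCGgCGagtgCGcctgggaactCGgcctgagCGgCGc

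Zfp365 and Slc17a6 held 8 CGs each and Tctex1d1 held 11, against 32 in Btg2 and 29 in Msx1. CG reads the same on both strands, so a window has 1 count. The ratio of observed CGs to the number given by its C and G content was 0.29 for Zfp365, 0.37 for Slc17a6 and 0.41 for Tctex1d1, against 0.83 for Btg2 and 0.79 for Msx1. The region covered 245 of the 300 bases of the Zfp365 window and 155 of the Btg2 window, and all of the Tctex1d1 and Slc17a6 windows.

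Over the 25 promoters of the untreated-only regions, the median window held 12 CGs with an observed to expected ratio of 0.55. The median was 25 CGs (0.82) over 2638 genes of treated-only regions and 23 (0.75) over 1043 genes of regions in some lists of both kinds. It was 23 (0.74) over 2221 genes of regions in all 8 lists and 6 (0.35) over 12150 genes whose window met no region. Over all 17274 genes with a window it was 14 (0.58), near that of the 25 promoters. A ratio of at least 0.6 was reached by 8 of the 25 windows (32.0%), against 83.3% for treated-only regions, 70.7% for regions of all 8 lists and 34.3% for genes whose window met no region, and by 48.9% of all genes with a window. Of the 25 windows, 9 held 5 to 9 CGs and 0 held fewer. The richest was that of Arap2, a GTPase-activating protein, with 47 CGs. These are counts over windows, the 25 promoters are few, and a gene with several start sites can stand in more than 1 class.

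**Figure D1:**
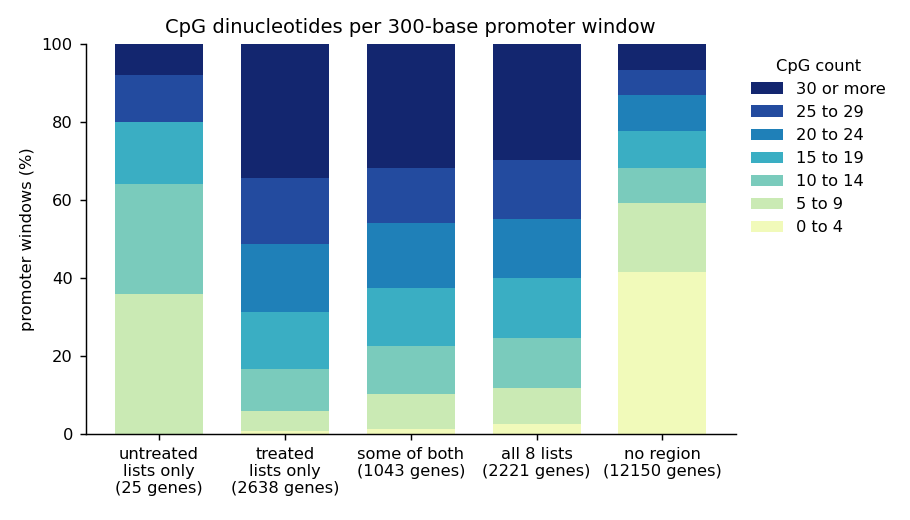
Stacked bars give the share of RefSeq promoter windows (y axis, percent) by their number of CGs per 300 bases, for promoters under untreated-only regions (25 genes), treated-only regions, regions of some lists of both kinds, regions of all 8 lists and no region. The untreated-only bar holds 36.0% of windows with 5 to 9 CGs and 8.00% with 30 or more.

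Most of the 207 regions rested on a single list. A peak was present in 1 untreated list at 152 regions, in 2 at 40, in 3 at 14 and in all 4 at 1, the Zfp365 promoter. The DRB 0 h list of replicate 2 held 106 of the regions and was the sole list at 59, and the triptolide 0 h list of replicate 2 held 125 and was the sole list at 74. The replicate 1 lists held 17 (DRB 0 h, sole list at 12) and 30 (triptolide 0 h, sole list at 7). Lists of both untreated series held 47 regions, DRB 0 h lists alone 71 and triptolide 0 h lists alone 89. The treated lists were the longer ones, with 7153 to 10929 peaks against 5116 to 6886 in untreated cells.

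The regions were narrow, and per kb they were weaker than regions of all 8 lists. Their median width was 775 bp, against 953 bp for treated-only regions, 1292 bp for regions in some lists of both kinds and 2370 bp for regions of all 8 lists. Width went with the number of lists. The median was 717.5 bp for those of the 207 in 1 list and 1032.5 bp for those in 3. It was 704 bp for the 1898 regions of 1 treated list and no untreated list. Reads over the widest peak are given in CPM, reads per 1000000 reads counted over all 11943 regions after TMM scaling. CPM are therefore shares, and a change that is even over all regions would not show in them. Per kb of peak, the median was 13.5 CPM in treated and 26.4 CPM in untreated cells at the 207 regions. It was 49.3 CPM in treated and 58.8 CPM in untreated cells at regions of all 8 lists, and 20.5 CPM in treated and 15.1 CPM in untreated cells at treated-only regions. At regions in some lists of both kinds it was 26.0 CPM in treated and 27.4 CPM in untreated cells. Over all regions it was 26.7 CPM in treated and 25.6 CPM in untreated cells. Loss of Suz12 in every cell and loss in a fraction of the cells cannot be told apart in such libraries.

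The 8 libraries held 1323927 to 7340017 reads over the 11943 regions, the fewest in the DRB 0 h library of index ATCACG. DRB count columns carry an index and no replicate number of the labels, so DRB libraries are named by index. Those of index TGACCA carry a further number, the same at 0 h and 12 h, that matches no replicate label. The columns give different lanes for treated and untreated libraries, so lane and treatment cannot be told apart. All 39 genes of the Hox list had an end within 1 kb of a region of all 8 lists, which is a check of the antibody at known PRC2 targets. Nothing in the labels ties libraries of different groups to 1 culture, and all p-values measure the spread between 2 libraries a group.

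Median Suz12 at the 207 regions was lower in each treated library than in each untreated one. It was 7.20 and 11.6 CPM in the DRB 12 h libraries of index ATCACG and TGACCA, against 17.3 and 19.8 CPM in the DRB 0 h libraries of the same indices. It was 12.7 and 11.4 CPM in replicates 1 and 2 of triptolide 9 h, against 23.2 and 21.7 CPM in those of triptolide 0 h. The DRB 12 h library of index ATCACG was the lowest. Its regions had a median of 18 reads, against 92 in the other DRB 12 h library. Together the 207 regions took 0.158% to 0.300% of the reads in treated libraries and 0.352% to 0.498% in untreated libraries.

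**Figure D2:**
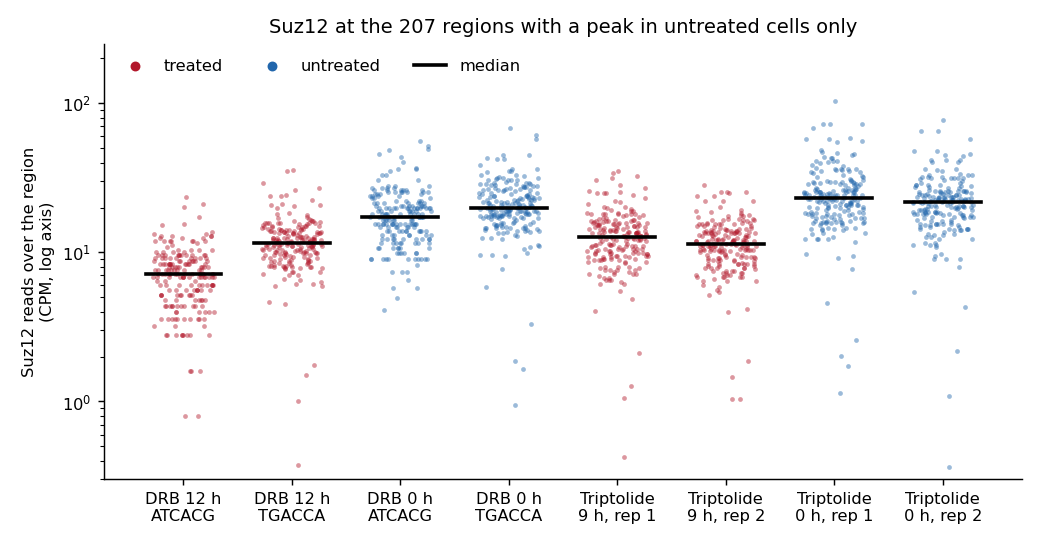
Each point is 1 of the 207 regions, with its Suz12 reads in CPM on a log axis, for the 8 libraries on the x axis (treated red, left of the untreated blue of the same series). Black lines are medians, which lie between 7.20 and 12.7 CPM in treated and between 17.3 and 23.2 CPM in untreated libraries.

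The median log2 change over both inhibitors was -0.94, with single regions between -1.91 and -0.25, against a median of 0.05 over all 11943 regions. Scaling to the sum of all counts put the median of all regions at 0.25, and TMM over the regions of all 8 lists put it at 0.41. A scaling shifts all regions nearly alike. The median of the 207 regions therefore lay 0.99 below that of all regions in each of the 3 scalings. With TMM over all regions it was -0.96 for DRB 12 h against 0 h and -0.91 for triptolide 9 h against 0 h. The change was below 0 under both inhibitors at 205 of the 207 regions. By edgeR's quasi-likelihood test over both inhibitors, 189 of the 207 regions (91.3%) fell and 0 rose at an adjusted p under 0.05, where 28.9% of all regions fell and 28.0% rose. For DRB alone 127 fell, against 19.2% of all regions, and for triptolide alone 126 fell, against 21.9%. All 4 treated libraries were below all 4 untreated ones at 142 regions (68.6%), which held for 25.2% of all regions. The calls of these libraries chose the regions, and nothing is read from these counts. With TMM over the regions of all 8 lists, 106 of the 207 (51.2%) fell and 0 rose, where 10.7% of all regions fell and 49.2% rose.

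**Figure D3:**
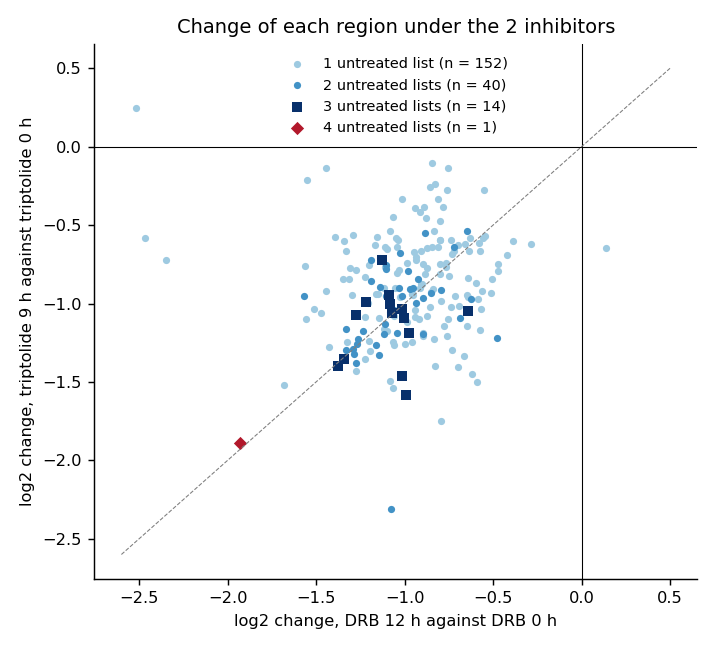
Each point is 1 of the 207 regions, with its log2 change in DRB 12 h against DRB 0 h cells (x axis) and in triptolide 9 h against triptolide 0 h cells (y axis), coloured by the number of untreated lists with a peak. The dashed line marks equal change. The single region of all 4 untreated lists, at Zfp365, lies near that line at -1.93 (DRB) and -1.89 (triptolide).

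Regions called in more untreated lists had higher untreated levels and larger differences, both of which the rule favours. Median CPM was 9.94 in treated and 18.2 in untreated cells for regions of 1 list, 11.7 in treated and 24.96 in untreated cells for regions of 2 lists, and 12.9 in treated and 29.5 in untreated cells for regions of 3 lists. The median log2 change was -0.89, -0.998 and -1.07 for 1, 2 and 3 lists. On the other side of the rule, 213 regions had a peak in exactly 1 treated list and in at least 1 untreated list. Their median log2 change was -0.64, with a median of 15.0 CPM in treated and 23.9 CPM in untreated cells.

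Regions can also be chosen on the lists of 1 inhibitor and read in the libraries of the other, although peaks of all 8 lists set the regions' bounds and the widest one the counting window. On the DRB lists alone, 148 regions had a peak at DRB 0 h and none at DRB 12 h, whatever the triptolide lists held. Of them, 118 are among the 207, and the other 30 had a peak in a triptolide 9 h list. In the triptolide libraries these 148 regions had medians of 12.9 and 12.1 CPM at 9 h against 23.5 and 19.13 CPM at 0 h. The median log2 change for triptolide was -0.76, against -0.41 at regions of all 8 lists and 0.03 over all regions, and 145 of the 148 were below 0. By edgeR's quasi-likelihood test, adjusted over all regions, 68 of the 148 (45.9%) fell and 0 rose, where 21.9% of all regions fell. The share that fell among the regions of all 8 lists was 48.7%. Both 9 h libraries were below both 0 h libraries at 128 of them (86.5%), against 37.5% of all regions.

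On the triptolide lists alone, 307 regions had a peak at 0 h and none at 9 h. Of them, 136 are among the 207, and the other 171 had a peak in a DRB 12 h list. In the DRB libraries the 307 regions had medians of 10.0 and 15.7 CPM at 12 h, against 21.4 and 24.7 CPM at 0 h. The median log2 change for DRB was -0.78, against -0.35 at regions of all 8 lists and 0.05 over all regions, and 305 of the 307 were below 0. The edgeR test found 147 (47.9%) lower and 0 higher at an adjusted p under 0.05, where 19.2% of all regions were lower. Of the regions of all 8 lists, 42.4% were lower. Both 12 h libraries were below both 0 h libraries at 243 (79.2%), against 31.9% of all regions.

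Counted over the widest peak of the choosing 0 h lists, 61 of 148 fell under triptolide (41.2%, against 21.8% of all regions) and 147 of 307 under DRB (47.9%, against 19.2%). Both counts depended on scaling and on single libraries, while the medians stayed below 0 in each alternative run. With TMM scaling over the regions of all 8 lists in place of all regions, 20 of 148 regions (13.5%) fell under triptolide, where 4.75% of all regions fell, and 40 of 307 (13.0%) fell under DRB, where 4.78% did. Without the DRB 0 h library of index TGACCA, 23 of 307 (7.49%) fell under DRB, which was below the 10.1% of all regions, with a median of -0.64. Without replicate 1 of triptolide 0 h, 22 of 148 (14.9%) fell under triptolide, near the 13.9% of all regions, with a median of -0.64. Without replicate 2 of triptolide 9 h the count was 19 (12.8%), against 9.38% of all regions, and without replicate 1 of triptolide 9 h it was 31 (20.9%), against 9.94%. Without the DRB 12 h library of index TGACCA, 229 of 307 (74.6%) fell under DRB, where 23.2% of all regions did.

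**Figure D4:**
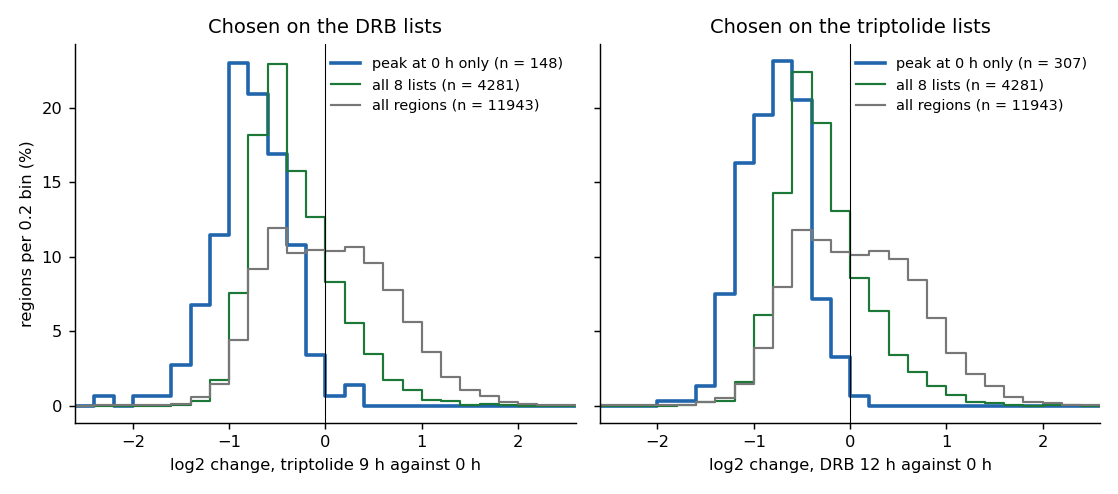
Share of regions (y axis, percent per bin of 0.2) by log2 change, for regions with a peak at 0 h only (blue), regions of all 8 lists (green) and all regions (grey). Left, 148 regions chosen on the DRB lists and read in the triptolide libraries, with a median of -0.76; right, 307 regions chosen on the triptolide lists and read in the DRB libraries, with a median of -0.78.

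Among regions named by the number of lists that held them, the Zfp365 promoter was the one in 4. The region, chr10:67911489-67912857, overlaps the start of the gene and was called in all 4 untreated lists. It had 12.8 and 15.1 CPM at DRB 12 h against 49.3 and 57.9 CPM at DRB 0 h, and 13.96 and 16.65 CPM at triptolide 9 h against 55.9 and 57.8 CPM at triptolide 0 h. All 4 treated libraries were below a level that all 4 untreated libraries exceeded, and its log2 change of -1.91 ± 0.14 (SE) was the lowest of the 207. The nearest region of all 8 lists was 370073 bp away. Its log2 change was -1.93 under DRB and -1.89 under triptolide.

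Next came the regions of 3 lists with the highest untreated levels. Near Dlx6, a homeobox gene of forebrain and limb, the region chr6:6870075-6871276 had 6.80 and 11.8 CPM at DRB 12 h against 18.1 and 30.6 CPM at DRB 0 h, and 14.8 and 14.4 CPM at triptolide 9 h against 41.3 and 35.4 CPM at triptolide 0 h. The treated values did not reach the untreated ones, and its log2 change was -1.38 ± 0.20. Near Pou3f3, a POU homeobox gene of the brain, the region chr1:42711380-42712546 had 6.40 and 13.7 CPM at DRB 12 h against 27.1 and 28.5 CPM at DRB 0 h, and 16.7 and 13.5 CPM at triptolide 9 h against 41.0 and 36.1 CPM at triptolide 0 h. Its log2 change was -1.35 ± 0.20, again with no overlap between treated and untreated libraries. Zeb2, a zinc finger repressor of the neural crest, had a region in its body with a log2 change of -1.24 ± 0.18, and Hand2, a bHLH factor of heart and limb, one 23677 bp from the gene with -1.05 ± 0.22. Rxrg, a retinoid X receptor, had one in its body with -1.01 ± 0.22.

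Treated and untreated libraries overlapped at the regions of Lhx2, Gsx2 and Zdbf2 that were in 3 lists. Inside Lhx2, a LIM homeobox gene of forebrain and eye, the region had 31.7 CPM in replicate 1 of triptolide 9 h and 27.9 CPM in the DRB 0 h library of index ATCACG, with a log2 change of -1.02 ± 0.23. At Gsx2, a homeobox gene of the ventral forebrain, the region of 3 lists had -1.04 ± 0.23. The region inside Zdbf2, a paternally expressed imprinted gene, had -1.10 ± 0.24. Rrp1, a gene of ribosomal RNA processing, lay 9332 bp from the region with the highest untreated level, which averaged 29.1 CPM in treated and 73.2 CPM in untreated cells (log2 change -1.29 ± 0.20).

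The regions with the highest untreated levels included flanks of Suz12 domains as well as isolated sites. Beside Msx1, 459 bp from the domain that covers the promoter printed above, a region averaged 24.4 CPM in treated and 55.9 CPM in untreated cells (log2 change -1.16 ± 0.15). In Hoxb3, a gene of the Hox B cluster, a region averaged 21.3 CPM in treated and 51.3 CPM in untreated cells (-1.22 ± 0.21). Without overlap between treated and untreated libraries, the Col24a1 promoter, of a fibrillar collagen gene, averaged 25.8 CPM in treated and 43.5 CPM in untreated cells (-0.73 ± 0.14). A pair of regions at chr2:116552126-116553844 and chr2:116558330-116562245 lay 324849 and 316448 bp from the nearest protein-coding gene end, that of Tmco5, and had log2 changes of -0.89 ± 0.25 and -0.85 ± 0.28. At both, the DRB 12 h library of index TGACCA was above the DRB 0 h library of index ATCACG. The region at Duxf3 (-0.89 ± 0.14) belongs to a multicopy family, and its reads may come from other copies.

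Among regions of at least median level, the changes ran up to -0.45. Besides Zfp365, Dlx6 and Pou3f3, the lowest included a region that overlaps Gsx2 (-1.32 ± 0.27) and one 29318 bp from Nr2e1, a nuclear receptor of neural stem cells (-1.31 ± 0.25). The highest were Wnt6, a Wnt ligand gene (-0.45 ± 0.18), Ccdc141 (-0.49 ± 0.25), the promoter of Plch1, a phospholipase C (-0.53 ± 0.20), Cfap45, a ciliary protein gene (-0.58 ± 0.20), and Hapln1, a link protein of the extracellular matrix (-0.59 ± 0.24). The region named by Wnt6 lay 10585 bp from the nearest end of that gene. It had 12.4 and 14.4 CPM at DRB 12 h against 20.5 and 14.6 CPM at DRB 0 h. At triptolide 9 h it had 15.9 and 15.4 CPM, against 22.9 and 25.3 CPM at triptolide 0 h. The DRB 0 h library of index TGACCA lay within the treated range there.

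At 4 of the regions, each called in the DRB 0 h list of replicate 1 alone, the level in a single library was several-fold that in any other. The region 1691 bp from Pdia4 had 25.5 CPM in the DRB 0 h library of index ATCACG and 0.941 to 3.60 CPM in the other 7. Those near Vapa and Pwwp2a and in Chd1 had 17.3, 14.8 and 15.6 CPM in that library and at most 4.80 CPM in any other. That library was the shallowest, and these were 31, 21, 18 and 19 reads. The fitted log2 changes of -1.52 ± 0.99, -1.16 ± 0.62, -1.14 ± 1.10 and -1.54 ± 0.81 rest on it. These 4 were singled out after their values were seen.

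Most of the 207 regions lay away from gene ends. An annotated end of a protein-coding gene, at either side since the annotation used gives no strand, was within 1 kb of 50 of the 207 regions (24.2%). The share was 63.1% for treated-only regions, 56.5% for regions in some lists of both kinds and 71.3% for regions of all 8 lists, and 30.0% for the 213 regions just outside the rule. Away from ends, 75 of the 207 lay inside a gene body and 82 between genes, which is 39.6% between genes, against 33.8% of the 213 regions just outside the rule, 10.3% of treated-only regions and 9.97% of regions of all 8 lists. The median distance to a gene end was 5040 bp, against 75 bp for treated-only regions. Width enters such shares, and the 1898 regions of 1 treated list and no untreated list, with a median width of 704 bp, had a gene end within 1 kb at 56.7%.

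Many of them lay close to constitutive Suz12 domains. A region of all 8 lists was within 5 kb of 87 of the 207 (42.0%), against 5.32% of treated-only regions, 25.8% of the 213 regions just outside the rule, 12.1% of regions in some lists of both kinds and 18.03% of regions of all 8 lists themselves. The median gap of the 87 was 415 bp and the smallest, in Lhx2, was 5 bp. With distances of 2, 10 and 20 kb the share of the 207 was 34.8%, 46.4% and 49.3%. The share within 5 kb was 53.9% of the regions found in triptolide 0 h lists alone and 21.1% of those found in DRB 0 h lists alone.

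**Figure D5:**
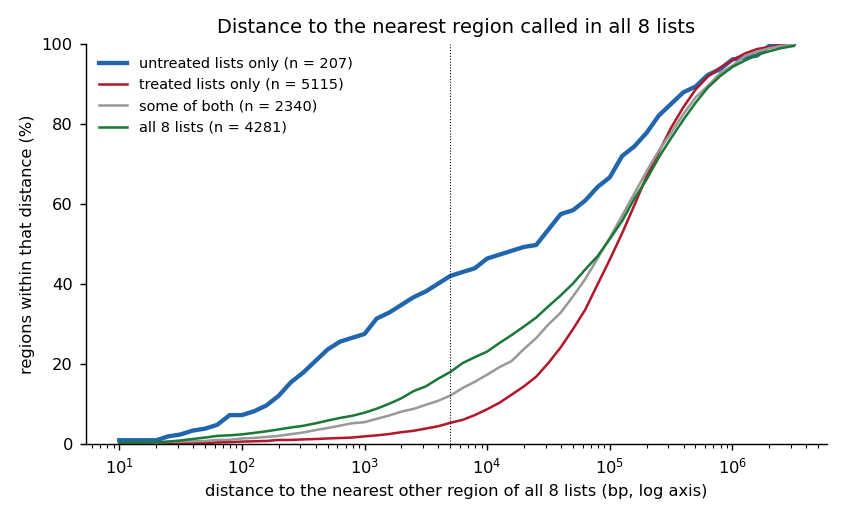
Cumulative share of regions (y axis, percent) by distance to the nearest other region of all 8 lists (x axis, bp, log scale), for untreated-only regions (blue, 207), treated-only regions (red), regions in some lists of both kinds (grey) and regions of all 8 lists (green). At the dotted line, 5 kb, the blue curve stands at 42.0% and the red one at 5.32%.

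The 87 regions had 81 distinct neighbours, which were broad and strong. Their median width was 3984 bp, against 2370 bp for all regions of all 8 lists, and their untreated level 91.1 CPM per kb, against 58.8. The neighbours' median log2 change over both inhibitors was -0.62, against -0.38, and 77 of the 81 (95.1%) fell, where 59.1% of the regions of all 8 lists did. With TMM over the regions of all 8 lists the neighbours' median was -0.25, against -0.02, and 46 of the 81 (56.8%) fell, where 23.3% did. The flanking region had a lower log2 change than its neighbour at 84 of the 87, with a median difference of -0.46. Regions within 5 kb of a domain had a median log2 change of -1.05 and the other 120 one of -0.86. Choice by absent treated peaks favours low values at the flanks, so the difference from the neighbour is a description. The neighbours were picked through these flanks in the same libraries. The regions of all 8 lists were not matched to them in width or level. The neighbours' fall is therefore a description as well.

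The length covered by peaks inside those neighbours was also compared. The flanking peaks lie outside the neighbours' bounds and were not counted. The lengths therefore do not show whether a domain together with its flanks became shorter. Summed over a neighbour, peaks covered a median of 2673 and 3348 bp in the DRB 12 h lists, against 2602 and 3302 bp in the DRB 0 h lists. They covered 3079 and 3185 bp in the triptolide 9 h lists, against 3801 and 3407 bp in the triptolide 0 h lists. The median ratio of treated to untreated length was 1.01 for DRB and 0.91 for triptolide. At the other 4200 regions of all 8 lists it was 1.12 for DRB and 0.98 for triptolide. The mean length was shorter in treated than in untreated lists at 59 of the 81 neighbours (72.8%) and at 38.3% of the 4200. All 4 treated lists were shorter than all 4 untreated lists at 0 of the 81 and at 20 of the 4200 (0.476%).

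A gene of the list of 40 developmental regulators was nearest to 15 of the 207 regions (7.25%), against 0.0978% of treated-only regions, 0.855% of regions in some lists of both kinds and 2.36% of regions of all 8 lists. Nearest does not mean close. Only 1 of the 40 genes had an end within 1 kb of the 207 regions, against 39 for regions of all 8 lists. Among them were Cdx2, Pax7 and Tbx5 with 2 regions each, and Lhx2, Pax6, Sox1, Tbx1, Nkx2-5 and Gata4 with 1 each. The distances of the 15 ran from 605 bp (Nkx2-5) to 39769 bp (Tbx5). Their log2 changes ran from -1.30, at 10987 bp from Tbx5, to -0.66, at 39769 bp from the same gene. Of these, Cdx2 directs caudal and trophoblast fates and Pax6 the eye. The lists were assembled with results of these data known and serve here to describe.

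Hox genes were nearest to 7 regions (3.38%), against 0.0391% of treated-only regions and 1.33% of regions of all 8 lists. At Hoxd8 a region overlapping the gene averaged 10.3 CPM in treated and 20.4 CPM in untreated cells (log2 change -0.95 ± 0.21), and another, 358 bp away, averaged 11.2 CPM in treated and 25.9 CPM in untreated cells (-1.12 ± 0.27). At Hoxc10 the region averaged 9.37 CPM in treated and 19.13 CPM in untreated cells (-1.03 ± 0.31), with its neighbour 47 bp away at 791 CPM in treated and 1213 CPM in untreated cells. Beside Nkx2-5, a cardiac homeobox gene, the region averaged 7.90 CPM in treated and 15.3 CPM in untreated cells (-0.98 ± 0.26), 103 bp from a neighbour of 553 CPM in treated and 840 CPM in untreated cells. The remaining Hox regions were beside Hoxb3, Hoxa4, Hoxc12 and Hoxc13.

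Of the remaining lists, ion channels were nearest to 5 regions, with 1 each at Glra1, a glycine receptor, and Kcnd3, a potassium channel. The Glra1 region overlaps an end of the gene and averaged 15.3 CPM in treated and 26.1 CPM in untreated cells (-0.82 ± 0.19). Genes of Wnt, FGF, BMP and Hedgehog signalling were nearest to 5, at Wnt6, Wnt10a, Wnt11 and Gdf6, the last with 2. Pluripotency genes, Polycomb subunits and immediate early genes were nearest to 1 region each, at Tbx3, Bmi1 and Jun, of which those of Tbx3 and Jun were 106170 and 108821 bp away. Lists of neuronal G protein-coupled receptors, axon guidance, extracellular matrix, germline and housekeeping genes had 0. In all, 187 genes were nearest to the 207 regions, and 17 genes were nearest to 2 or 3, which together took 37 regions.

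At the genes with several regions given here, the log2 changes were below 0, as at all 207 regions. At Dlx6 the changes were -1.38 ± 0.20, -1.25 ± 0.23 and -1.11 ± 0.20. At Gsx2 they were -1.32 ± 0.27, -1.13 ± 0.20 and -1.04 ± 0.23. The pair inside Zdbf2 had -1.10 ± 0.24 and -1.04 ± 0.26. Regions at 1 locus share cells, libraries and, in part, a domain, and are not replicates. Imprinted genes with a region, noticed after the values were seen, were Kcnq1 (-0.96) and Plagl1 (-0.64).

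The printed promoters other than that of Zfp365 had the following levels. The Tctex1d1 promoter, called in 3 lists, averaged 11.2 CPM in treated and 24.5 CPM in untreated cells (-1.08 ± 0.22). The Slc17a6 promoter averaged 14.2 CPM in treated and 27.7 CPM in untreated cells (-0.94 ± 0.21), and its nearest region of all 8 lists was 1644362 bp away. The Btg2 promoter averaged 11.1 CPM in treated and 24.1 CPM in untreated cells (-1.14 ± 0.18), the lowest change among promoters of the 207 regions with a CG ratio of at least 0.6.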

How the data were processed

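Suz12 ChIP-seq of E14 cells was analysed in 8 of the 20 samples of the series, and 12 samples were not analysed here. The authors deposited 1 peak list per library with raw read counts over each peak, per the file headers. Bowtie, MACS and the mm10 build are named in the submitters' processing notes, without versions, and the counting tool is not given in the sources used here. Each list has 13 count columns. Of these, 5 could not be matched to 1 labelled sample and were not used, so the shorter treatments are not analysed here.

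Peaks sharing at least 1 bp were merged, list starts were raised by 1, and the widest peak gave a region its counts. Column totals were 1323927 to 7340017 reads, and a median region had 18 reads in the DRB 12 h library of index ATCACG and 92 in that of index TGACCA. Counting error therefore differs between libraries. Counts were fitted with edgeR 4.0.16 (R 4.3.3) by quasi-likelihood over 11943 regions, with TMM scaling, 4 groups, no filter and Benjamini-Hochberg adjustment at 0.05. A standard error is the log2 change over the square root of F. On simulated counts for the contrast over both inhibitors, 96% of regions changed 2-fold were recovered, with 8 false calls among 11743 unchanged regions. For triptolide the share was 74% and for DRB 76%. The changed regions were drawn from all 11943, with 1 common spread. The shares therefore do not give the recovery at the 207 regions, which held fewer reads. DESeq2 1.42.0, other scalings, a count filter, other peaks and overlaps, list rules and windows, the replicate block and leaving out each library were the alternatives.

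The 207 regions, the 12 gene lists and the rules were chosen with earlier results of these data known. Named regions were those of 3 or 4 untreated lists and those of highest untreated CPM (up to 10 each), the 6 lowest and 6 highest log2 changes among regions of at least median CPM, and up to 3 genes per list with an end within 1 kb. This gave 30 regions, and some named regions and list genes are not reported here. Regions named by nearest list gene, by a printed promoter or by several regions at a gene were chosen after their values were seen.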

Additional observations from a re-analysis of the deposited data

How the results depend on the processing

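The number of untreated-only regions was 207. It was 135 with peaks closer than 1 kb merged, 55 with a peak required in at least 2 untreated lists, 1030 with lists of equal length, and 144 to 340 with 1 list left out, the most without replicate 2 of DRB 12 h. The median log2 change was -0.58 with TMM scaling over regions of all 8 lists, and -1.20 to -0.82 with 1 library left out, the lowest without the DRB 12 h library of index TGACCA. Regions lower under triptolide, among the 148 chosen on DRB lists, numbered 33 with scaling to the sum of counts (22.3%, against 11.1% of all regions), 20 with TMM over regions of all 8 lists (13.5%, against 4.75%) and 19 (12.8%, against 9.38%) to 88 (59.5%, against 25.1%) with 1 library left out, in place of 68. Regions lower under DRB, among the 307 chosen on triptolide lists, numbered 68 (22.1%, against 10.8%), 40 (13.0%, against 4.78%) and 23 (7.49%, against 10.1%) to 229 (74.6%, against 23.2%) under the same changes, in place of 147. DESeq2 gave 47 of 148 (31.8%, against 18.8%) and 119 of 307 (38.8%, against 17.8%). A gene end lay within 2.5 kb of 39.1% of the regions, and a region of all 8 lists within 2 kb of 34.8% and within 20 kb of 49.3%. The causes were not tested. The distances and the counts from other peaks of the choosing lists were added after the data were seen. The other 46 of 64 alternatives stayed within 1.5 times the count, or within the spread. Of 406 alternatives for 29 of the named regions, 72 moved by more than the spread and 0 changed sign.

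A replicate block was fitted from the triptolide replicate numbers alone, with no term for the DRB index. With it, 60 of 148 regions fell under triptolide (40.5%, against 20.8% of all regions) and 133 of 307 fell under DRB (43.3%, against 18.3%). The median of the 207 was -0.93. Same-numbered libraries deviated together (r = 0.39 for triptolide, 0.37 for DRB), but 2 pairs do not establish pairing. Depth limits the DRB libraries of index ATCACG most, where a median region had 18 reads at 12 h and 21 at 0 h.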
